A study of Mus musculus with 13 samples.

Results

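The genes described here carry out mitochondrial protein import, the transfer of proteins made in the cytosol into mitochondria. They were chosen by name as the genes whose symbol starts with Timm or Tomm followed by a digit, together with Pmpca, Pmpcb, Hspd1, Hspe1, Hspa9, Grpel1, Grpel2, Chchd4, Gfer, Dnajc19, Pam16, Samm50, Mtx1, and Mtx2. This gave 40 of the 24972 genes listed, of which 39 code for proteins and 1, Tomm6os, is a transcript from the strand opposite Tomm6. RNA came from common lymphoid progenitors (CLPs), marrow cells able to give rise to lymphocytes, of adult C57BL/6 mice of 6 to 12 weeks, with 5 WT, 5 Notch1+/-, and 3 Notch1+/dTAD mice and 1 library per mouse. Notch1+/- mice carry 1 functional Notch1 allele in every cell, and Notch1+/dTAD mice carry 1 WT allele and 1 allele whose protein lacks the transactivation domain, also in every cell, so that neither mutant is restricted to CLPs. Sorted cells were negative for DAPI and lineage markers, low for Sca1 and cKit, and positive for CD127 and CD135, and animals of both sexes were used in the study. Libraries were made with a strand-specific 3′ kit that primes from the poly(A) tail, from 1 ng of RNA. Values are TPM, transcript abundances scaled to a sum of 1000000 in each library, and they came without read counts, so the depth behind a value is unknown and a gene without signal is only said to be listed at 0. Libraries are named by the numbers in the labels, 1, 2, 3, 10, and 11 for WT, 4, 5, 6, 12, and 13 for Notch1+/-, and 7, 9, and 14 for Notch1+/dTAD, and values below follow this order within each genotype.

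Most mitochondrial proteins are encoded in the nucleus and enter as precursors through the TOM channel of the outer membrane. From there, precursors with a cleavable presequence pass the TIM23 translocase and are pulled into the matrix by a motor built on the chaperone Hspa9, then trimmed by a peptidase of Pmpca and Pmpcb and folded by Hspd1 with its lid Hspe1. Carrier proteins are escorted by the small TIM chaperones to the TIM22 translocase, cysteine-rich proteins are trapped between the membranes by the disulfide relay of Chchd4 and Gfer, and barrel proteins are inserted into the outer membrane by the SAM complex. Lymphoid progenitors depend on this machinery as other cells with active mitochondria do, and Notch1 is the receptor through which marrow progenitors are directed to the T lineage.

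Promoter sequence is shown for 4 members. Timm13 and Pmpcb were the members whose Notch1+/dTAD and WT libraries did not overlap, Chchd4 was listed at 0 in most WT and Notch1+/- libraries, and Hspe1 lies head to head with Hspd1. Each sequence holds 250 bases before and 50 bases after the RefSeq gene start in GRCm38.p6, 5′ to 3′ on the strand of the gene. Capitals mark motif letters found on either strand, which are CCGGAAG for ETS factors, GGGCGG for the GC box, GAANNTTC for a heat shock element and CCAAT for the CCAAT box, and the motif of NRF-1 was searched as well.
Timm13, minus strand, chr10:80900920-80901219: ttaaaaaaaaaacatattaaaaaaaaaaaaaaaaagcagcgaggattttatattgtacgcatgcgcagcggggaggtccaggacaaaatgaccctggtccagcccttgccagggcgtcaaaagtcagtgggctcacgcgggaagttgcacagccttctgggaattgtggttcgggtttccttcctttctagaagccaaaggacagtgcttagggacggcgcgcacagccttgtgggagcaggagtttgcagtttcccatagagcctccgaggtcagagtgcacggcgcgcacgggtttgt
Pmpcb, plus strand, chr5:21736910-21737209: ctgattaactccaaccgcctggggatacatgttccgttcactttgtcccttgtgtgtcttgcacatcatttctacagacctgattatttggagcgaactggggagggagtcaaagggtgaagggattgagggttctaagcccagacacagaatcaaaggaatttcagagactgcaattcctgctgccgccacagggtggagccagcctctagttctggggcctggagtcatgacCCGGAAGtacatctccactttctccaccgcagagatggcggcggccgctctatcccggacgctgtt
Chchd4, minus strand, chr6:91473374-91473673: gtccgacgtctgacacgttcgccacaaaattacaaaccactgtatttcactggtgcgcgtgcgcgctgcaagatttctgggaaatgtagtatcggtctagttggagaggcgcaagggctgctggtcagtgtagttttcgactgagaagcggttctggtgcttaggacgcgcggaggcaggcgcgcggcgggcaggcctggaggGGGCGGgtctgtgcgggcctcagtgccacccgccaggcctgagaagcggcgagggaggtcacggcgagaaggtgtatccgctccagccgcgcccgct
Hspe1, plus strand, chr1:55087898-55088197: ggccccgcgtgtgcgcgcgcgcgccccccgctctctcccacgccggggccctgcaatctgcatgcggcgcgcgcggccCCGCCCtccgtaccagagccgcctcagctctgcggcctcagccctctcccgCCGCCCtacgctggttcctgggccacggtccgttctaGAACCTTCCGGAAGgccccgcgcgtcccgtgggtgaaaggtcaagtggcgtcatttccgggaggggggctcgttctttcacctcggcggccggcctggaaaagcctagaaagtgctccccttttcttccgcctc

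The Timm13 window held 0 of these motifs as searched, the Pmpcb window held 1 ETS string, and the Chchd4 window held 1 GC box. In the Hspe1 window there were 2 GC boxes, and a heat shock element overlapped an ETS string read on each strand in a single run of capitals. Hspd1, the chaperonin partner of Hspe1, has RefSeq starts 95 and 216 bases from the Hspe1 start on the other strand, so that the genes share this stretch. Of the 40 members, 35 had a promoter in the table. The ETS string was present in 16 of them (45.7%) against 9.93% of 27025 genes, and the GC box in 21 (60%) against 38.2%. CCAAT was present in 11 (31.4%) against 41.1% of all genes, and the heat shock element in 3 (8.57%), which were Hspd1, Hspe1, and Timm9, against 9.04%. The NRF-1 motif was searched only as a fixed string of letters. This string was in 0 of the 35 and in 1.07% of all genes. Sequences that differ from it were not counted, so the 0 does not show that the motif is absent. All motif counts here are letter matches within a window and give no binding. The 27025 genes were not limited to genes expressed in CLPs, so these shares do not set import genes apart from other expressed genes.

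Markers of CLPs were present. Dntt, Flt3, and Ly6d were at 1 TPM or more in all 13 libraries, Il7r in 12, and Rag1 in 10, whereas Kit reached 1 TPM in 6 and Ly6a in 5, at a gate that takes cells low for their products. All 6 B lineage markers and all 7 myeloid markers reached 1 TPM in at least 1 library, and their summed TPM ranged from 4.95 to 897 and from 268 to 2067 in WT, from 14.5 to 1839 and from 108 to 1243 in Notch1+/-, and from 79.5 to 1555 and from 138 to 1745 in Notch1+/dTAD libraries. Of the erythroid markers, Hba-a2, Hbb-bs, Hbb-bt, and Klf1 were listed at 0 throughout and Hba-a1 reached 17.6 TPM. The T and NK markers Cd3e, Cd3g, Cd8a, and Klrb1c were listed at 0 throughout, Cd3d stayed under 1 TPM, Cd4 reached 1 TPM in 2 libraries and Nkg7 in 5. Over all genes, WT libraries listed 3179 to 3855 at 1 TPM or above, Notch1+/- libraries 2818 to 4736, and Notch1+/dTAD libraries 3984 to 4663. Library 6, a Notch1+/- library, had the fewest and stood apart in several members. The part of other cell types and of the number of genes listed in the results below was not tested.

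Import genes were listed unevenly. Of the 40 members, 4 reached 1 TPM in all 13 libraries, 13 did so in 7 to 12 libraries, 21 in 1 to 6, and 2 in none. The steady 4, Tomm7, Hspd1, Hspe1, and Hspa9, make up 10% of the members, whereas 592 of all 24972 genes (2.37%) were that steady. Most of the 24972 are at 0 in a library, so the shares do not set import genes apart from other expressed genes. Of the 520 member values, 240 (46.2%) were listed at 0 and 21 lay between 0 and 1 TPM, and 36 members were at 0 in at least 1 library. Timm8a2 and Tomm20l were listed at 0 in every library. A gene of this set therefore tended to be either clearly listed or at 0 in a given library.

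**Figure D1:**
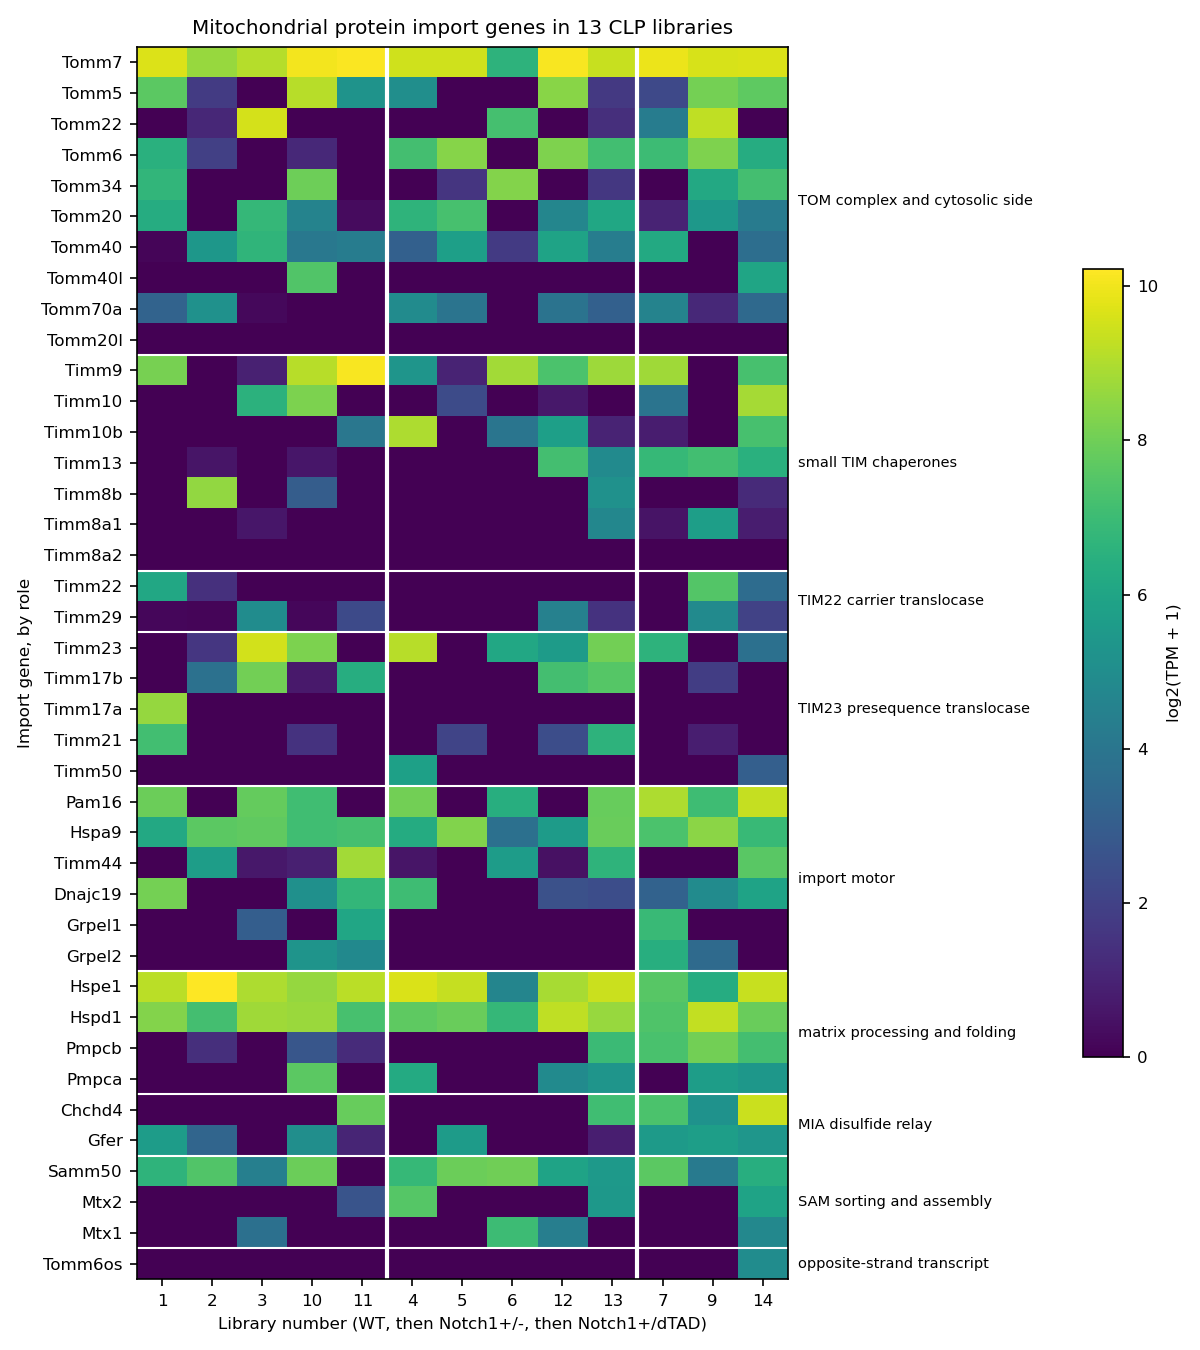
Colour shows log2(TPM + 1) of each of the 40 import genes (vertical axis, grouped by role) in each of the 13 libraries (horizontal axis, by library number and genotype). Tomm7, Hspd1, Hspe1, and Hspa9 are listed in every library, whereas most other genes switch between 0 and higher values within a genotype.

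Together the 40 genes held 0.175% to 0.524% of the TPM of a library. Their summed level was 3794, 2649, 4029, 4859.8, and 4169 TPM in WT, 4036, 2747, 1755, 3671, and 3973 TPM in Notch1+/-, and 3666, 4117, and 5239.6 TPM in Notch1+/dTAD libraries. The lowest sum was in library 6 and the highest in library 14, and the 3 genotypes overlapped. Group means were 3900.1 ± 804 (SD, n = 5) in WT, 3236 ± 975 (SD, n = 5) in Notch1+/-, and 4341 ± 810.3 (SD, n = 3) in Notch1+/dTAD, which is a ratio of 1.11 for Notch1+/dTAD to WT, 0.83 for Notch1+/- to WT, and 1.34 for Notch1+/dTAD to Notch1+/-. Without library 14, the ratio of Notch1+/dTAD to WT was 0.998. The steady 4 genes supplied 41.2% to 73.2% of the sum in WT, 13.9% to 68.9% in Notch1+/-, and 34.7% to 44.1% in Notch1+/dTAD libraries.

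The number of members at 1 TPM or more was 17, 17, 15, 22, and 18 in WT, 18, 14, 14, 20, and 28 in Notch1+/-, and 22, 23, and 31 in Notch1+/dTAD libraries. Notch1+/dTAD libraries thus held at least as many listed members as any WT library, and their total of genes listed was also above that of every WT library. The mean of log2(TPM + 1) over all 40 members was 2.81 ± 0.55 (SD, n = 5) in WT, 2.86 ± 0.79 (SD, n = 5) in Notch1+/-, and 3.93 ± 0.69 (SD, n = 3) in Notch1+/dTAD libraries. Over all 24972 genes the corresponding difference of Notch1+/dTAD from WT was 0.15, against 1.13 over the members, and from Notch1+/- it was 0.12, against 1.07. Without library 14 the differences over the members were 0.73 and 0.67, and with a pseudocount of 10 in place of 1 they were 0.54 and 0.55. Because the members were chosen with earlier results known and most of the 24972 genes are at 0, these means are a description without a test.

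**Figure D2:**
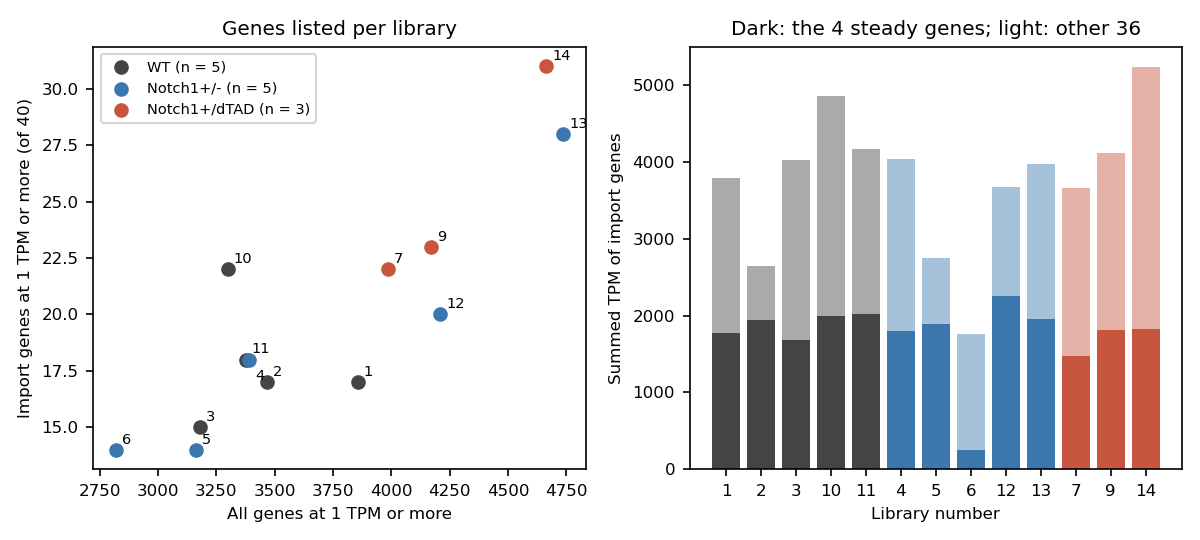
The left panel plots the number of import genes at 1 TPM or more (of 40) against the number of all genes at 1 TPM or more for each library, with points colored by genotype and labelled by library number. The right panel stacks the summed TPM of the 4 steady genes (dark) and of the other 36 (light) per library. Libraries 13 and 14 list the most members and are also high in all genes, and library 6 has a small dark part.

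The TOM complex and proteins at its cytosolic side made up 10 of the members, and Tomm7, a small subunit that modulates the assembly of the channel, was the highest of these by mean TPM. Tomm7 was listed at 816, 403, 537, 1063, and 1151 TPM in WT, 712, 709, 95.9, 1119, and 659 TPM in Notch1+/-, and 962, 779, and 807 TPM in Notch1+/dTAD libraries. Library 6 lay below the other 12, which spanned 403 to 1151 TPM, and the groups overlapped. Tomm6, another small subunit, was listed at 89.8, 2.80, 0, 1.26, and 0 TPM in WT, 144, 330.3, 0, 299, and 138 TPM in Notch1+/-, and 126, 304, and 79.7 TPM in Notch1+/dTAD libraries. It was low in 4 of 5 WT libraries and at 79.7 TPM or more in all mutant libraries except library 6. Tomm6 lies on chromosome 17 of GRCm38, 47686646 to 47688386 on the minus strand, overlapped by Gm21981 on its strand and by Tomm6os and Usp49 on the other, and whether strand was used to assign reads is not given in the sources used here, so its values are less certain. Tomm6os was listed at 30.4 TPM in library 14 and at 0 in the other 12.

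Tomm5, a small subunit as well, was listed at 200.4, 2.41, 0, 552, and 37.5 TPM in WT, 32.0, 0, 0, 335, and 2.2 TPM in Notch1+/-, and 3.79, 270.3, and 205 TPM in Notch1+/dTAD libraries. High and low values occurred within each genotype. The presequence receptors Tomm20 and Tomm22 reached 1 TPM in 10 and 6 libraries with highest values of 152 and 748 TPM. Tomm40, which forms the channel itself, reached 1 TPM in 11 libraries and at most 101 TPM, and the carrier receptor Tomm70a reached 35.3 TPM at most. Tomm34, a cytosolic co-chaperone, reached 321 TPM and Tomm40l, a relative of Tomm40, 175 TPM, the latter in 2 libraries only. Tomm20l, a relative of Tomm20, was listed at 0 throughout and overlaps Timm9 on the opposite strand.

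Small TIM chaperones, which shield hydrophobic precursors between the membranes, gave 7 members. Timm13 was listed at 0, 0.483, 0, 0.547, and 0 TPM in WT, 0, 0, 0, 144, and 28.9 TPM in Notch1+/-, and 113, 140.4, and 88.9 TPM in Notch1+/dTAD libraries. Every Notch1+/dTAD library was above every WT library, and library 12 reached the highest value of all. Timm13 lies on chromosome 10 of GRCm38, 80899450 to 80900969 on the minus strand, and Tmprss9 overlaps it on the other strand. Timm9, the highest of the group by mean TPM, was listed at 280.2, 0, 0.937, 553, and 1110.0 TPM in WT, 39.8, 1.02, 441, 159, and 423 TPM in Notch1+/-, and 438, 0, and 152 TPM in Notch1+/dTAD libraries. Its range within each genotype was wider than the differences between genotype means.

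Timm10b was listed at 15.8 TPM in library 11 and at 0 in the other 4 WT libraries, at 498, 0, 14.6, 53.8, and 1.05 TPM in Notch1+/-, and at 0.757, 0, and 149 TPM in Notch1+/dTAD libraries. Timm8b was listed at 0, 374, 0, 7.07, and 0 TPM in WT, at 35.2 TPM in library 13 and 0 in the other 4 Notch1+/- libraries, and at 0, 0, and 1.36 TPM in Notch1+/dTAD libraries. For Timm10b and Timm8b a single library supplied most of the signal of a genotype. Timm10, which forms a hexamer with Timm9, reached 1 TPM in 5 libraries and 454 TPM at most, Timm8a1 reached 1 TPM in 2, with 52.4 TPM at most, and Timm8a2 stayed at 0.

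Carrier insertion rests on Timm22, the channel, and Timm29, a subunit of the same translocase. Timm22 was listed at 69.7, 1.71, 0, 0, and 0 TPM in WT, at 0 in all 5 Notch1+/-, and at 0, 181, and 11.4 TPM in Notch1+/dTAD libraries. It overlapped between WT and Notch1+/dTAD, and library 7 was at 0 like the Notch1+/- libraries. Timm29 reached 1 TPM in 6 libraries, 2 of each genotype, with 30.1 TPM at most.

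The 5 members of the TIM23 translocase summed to 15.1 to 1003 TPM in WT, 3.29 to 617 TPM in Notch1+/-, and 3.44 to 97.1 TPM in Notch1+/dTAD libraries, with overlap. Timm23, the channel, was listed at 0, 2.06, 738, 298, and 0 TPM in WT, 562, 0, 68.2, 47.6, and 262 TPM in Notch1+/-, and 97.1, 0, and 12.8 TPM in Notch1+/dTAD libraries. Its partner Timm17b was listed at 0, 13.0, 265, 0.615, and 81.8 TPM in WT, 0, 0, 0, 143, and 182 TPM in Notch1+/-, and 0, 2.62, and 0 TPM in Notch1+/dTAD libraries. Each genotype contained libraries at or near 0 for these genes, so that the groups overlapped. Timm21, which tethers TIM23 to TOM, was listed at 139, 0, 0, 1.84, and 0 TPM in WT, 0, 3.29, 0, 4.32, and 97.1 TPM in Notch1+/-, and 0, 0.827, and 0 TPM in Notch1+/dTAD libraries. Timm17a, the other form of the partner subunit, was at 393 TPM in library 1 and at 0 in the other 12, and Timm50, the receptor of the complex, was above 0 in library 4 (55.0 TPM) and library 14 (7.57 TPM) only.

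In the import motor, Hspa9, the matrix Hsp70, was listed at 70.4, 198, 209, 137, and 148 TPM in WT, 77.0, 310.5, 12.9, 47.7, and 239 TPM in Notch1+/-, and 159, 344, and 117 TPM in Notch1+/dTAD libraries. Its lowest value was again in library 6, and the groups overlapped. Pam16, a regulator of the motor at the inner membrane, had the highest mean TPM of this group and was listed at 243, 0, 220.3, 134, and 0 TPM in WT, 262, 0, 84.0, 0, and 228 TPM in Notch1+/-, and 499.7, 130.3, and 641 TPM in Notch1+/dTAD libraries. It was listed in all 3 Notch1+/dTAD libraries and at 0 in 2 libraries of each other genotype. Timm44, the anchor of the motor, reached 1 TPM in 5 libraries and 444 TPM at most, and its J-protein Dnajc19 reached 1 TPM in 9 and 269.7 TPM at most. The nucleotide exchange factors Grpel1 and Grpel2 were at 0 in all Notch1+/- libraries and reached 122 and 84.8 TPM in library 7.

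In the matrix, Hspd1, the chaperonin, was listed at 319, 145, 440.1, 408, and 152 TPM in WT, 208, 237, 111, 612, and 395 TPM in Notch1+/-, and 169, 615, and 233 TPM in Notch1+/dTAD libraries. Hspe1, its lid, was listed at 566, 1195, 493, 393, and 567 TPM in WT, 805, 637, 24.3, 472, and 669.6 TPM in Notch1+/-, and 191, 79.0, and 663 TPM in Notch1+/dTAD libraries. Hspd1 spanned a similar range in each genotype, with its lowest value in library 6, whereas Hspe1 was lowest in libraries 6, 9, and 7, in that order. The 2 genes overlap at their starts on opposite strands of chromosome 1. Pmpcb, the catalytic subunit of the processing peptidase, was listed at 0, 1.63, 0, 5.68, and 1.41 TPM in WT, at 125 TPM in library 13 and 0 in the other 4 Notch1+/-, and at 156, 267, and 144 TPM in Notch1+/dTAD libraries. All Notch1+/dTAD libraries were above all 10 others. The gene Pmpcb lies on chromosome 5 of GRCm38, 21737141 to 21757152 on the plus strand, and Gm15715 overlaps it on the other strand. Its partner Pmpca reached 1 TPM in 6 libraries, among them 2 Notch1+/dTAD libraries, and 202 TPM at most.

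**Figure D3:**
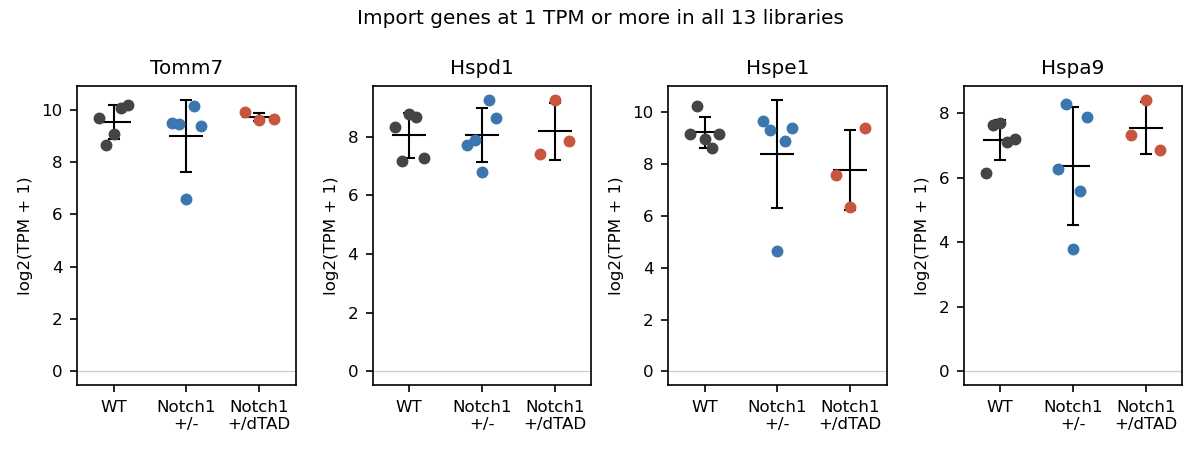
Points show log2(TPM + 1) of Tomm7, Hspd1, Hspe1, and Hspa9 in each library by genotype, with the mean and SD (n = 5, 5, and 3). The groups overlap in each gene, and 1 Notch1+/- point, library 6, is the lowest of all libraries in each gene.

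The disulfide relay was listed in each Notch1+/dTAD library. Chchd4, the oxidoreductase that traps its clients, was listed at 227 TPM in library 11 and at 0 in the other 4 WT libraries, at 134 TPM in library 13 and at 0 in the other 4 Notch1+/- libraries, and at 161, 35.6, and 682 TPM in Notch1+/dTAD libraries. Libraries 11 and 13 lay within the Notch1+/dTAD range, so that the groups overlapped. Chchd4 lies on chromosome 6 of GRCm38, 91462172 to 91473546 on the minus strand, with no other annotated gene across it. Gfer, which reoxidizes Chchd4, was listed at 48.8, 8.99, 0, 32.3, and 1.11 TPM in WT, 0, 47.7, 0, 0, and 0.824 TPM in Notch1+/-, and 46.9, 52.6, and 40.7 TPM in Notch1+/dTAD libraries. Its Notch1+/dTAD values were close to each other, with library 1 and library 5 among them.

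Of the SAM complex, Samm50, the barrel that inserts other barrels, was listed at 98.2, 173, 20.6, 244, and 0 TPM in WT, 116, 245, 256, 60.2, and 44.5 TPM in Notch1+/-, and 198, 17.3, and 84.7 TPM in Notch1+/dTAD libraries. Its range was similar in the 3 genotypes. The metaxins Mtx1 and Mtx2, which sit on its cytosolic face, each reached 1 TPM in 4 libraries, with 128 and 182 TPM at most.

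The first comparison asked how CLPs with an allele lacking the transactivation domain differed from WT CLPs. Members that stood out were all higher in Notch1+/dTAD CLPs, namely Timm13, Pmpcb, Tomm6, and Chchd4, but none passed the adjusted threshold. With limma on log2(TPM + 1), over the 4737 genes at 1 TPM or more in at least 3 of the 8 libraries, 0 genes passed a Benjamini-Hochberg adjusted p of 0.05, and 237 (5%) fell under 0.05 before adjustment, of which 196 (4.14%) were higher and 41 (0.866%) lower. Of the 40 members, 29 were tested, and 4 had an unadjusted p under 0.05, all higher, which is 13.8% of those tested. Among them, Timm13 was tested only because of its Notch1+/dTAD libraries. Over these 29, 21 fold changes were above 0 against 61.8% of all genes tested, and their median log2 fold change was 0.79 against 0.47. After quantile normalization the median over all genes was -0.022 and over the members 0.36, with 4 members still at an unadjusted p under 0.05. Fold changes on this scale understate those of low genes, and in sorted bulk RNA fewer cells that express a gene and less RNA per cell cannot be told apart.

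Timm13 was higher in Notch1+/dTAD CLPs by 6.58 on the log2(TPM + 1) scale (SE 1.62, limma adjusted p = 0.418), in 3 of 3 libraries against all 5 WT libraries. It met the TPM minimum only through Notch1+/dTAD libraries, so that being tested already required all 3 of them to lie above WT. Pmpcb was higher by 6.43 (SE 1.70, limma adjusted p = 0.418). For these genes, and for no other tested member, the libraries did not overlap. For Timm13 the filter fixed this in advance, so its lack of overlap is no support for a difference. Of all genes tested, 2.39% were higher and 0.739% lower without overlap. Without limma's mean-variance trend, 15 genes passed the adjusted threshold, with Timm13 (adjusted p = 0.0229) and Pmpcb (adjusted p = 0.0458) among them. Over all alternatives, the limma adjusted p of each ranged up to 0.922. Tomm6 was higher by 5.27 (SE 1.92, limma adjusted p = 0.836) and Chchd4 by 5.75 (SE 2.2, limma adjusted p = 0.864), each with overlap. The unadjusted p of Tomm6 was no longer under 0.05 without library 9, nor that of Chchd4 without library 7 or library 14.

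No lower member was under the unadjusted threshold with all libraries in the fit. Hspe1 was lower in Notch1+/dTAD CLPs, with a log2 fold change of -1.46 (SE 0.76, limma adjusted p = 0.952), Timm17b with -3.17 (SE 2.12, limma adjusted p = 0.959), and Timm8b with -1.90 (SE 1.86, limma adjusted p = 0.984). Hspe1 had -2.26 without library 14, where its unadjusted p was under 0.05, and -0.74 without library 9, and Timm17b had -2.10 without library 3. The steady genes Tomm7, Hspd1, and Hspa9 had log2 fold changes of 0.20 (SE 0.52), 0.13 (SE 0.79), and 0.37 (SE 0.89), and each changed sign without library 2 (Tomm7), library 2, 9, or 11 (Hspd1), or library 9 (Hspa9). By role, the disulfide relay had 2 of 2 tested members higher, the TIM22 translocase 2 of 2, the motor 5 of 6, the matrix group 3 of 4, TOM 6 of 8, the small TIM chaperones 2 of 4, and SAM 1 of 1, whereas both tested TIM23 members were lower. Of all genes tested, 61.8% were higher, and counts of 1 to 8 members are too small to set a role apart. TOM, the small TIM chaperones, the matrix group, and the relay each held 1 member with an unadjusted p under 0.05. At that threshold 4.14% of all genes tested were higher.

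**Figure D4:**
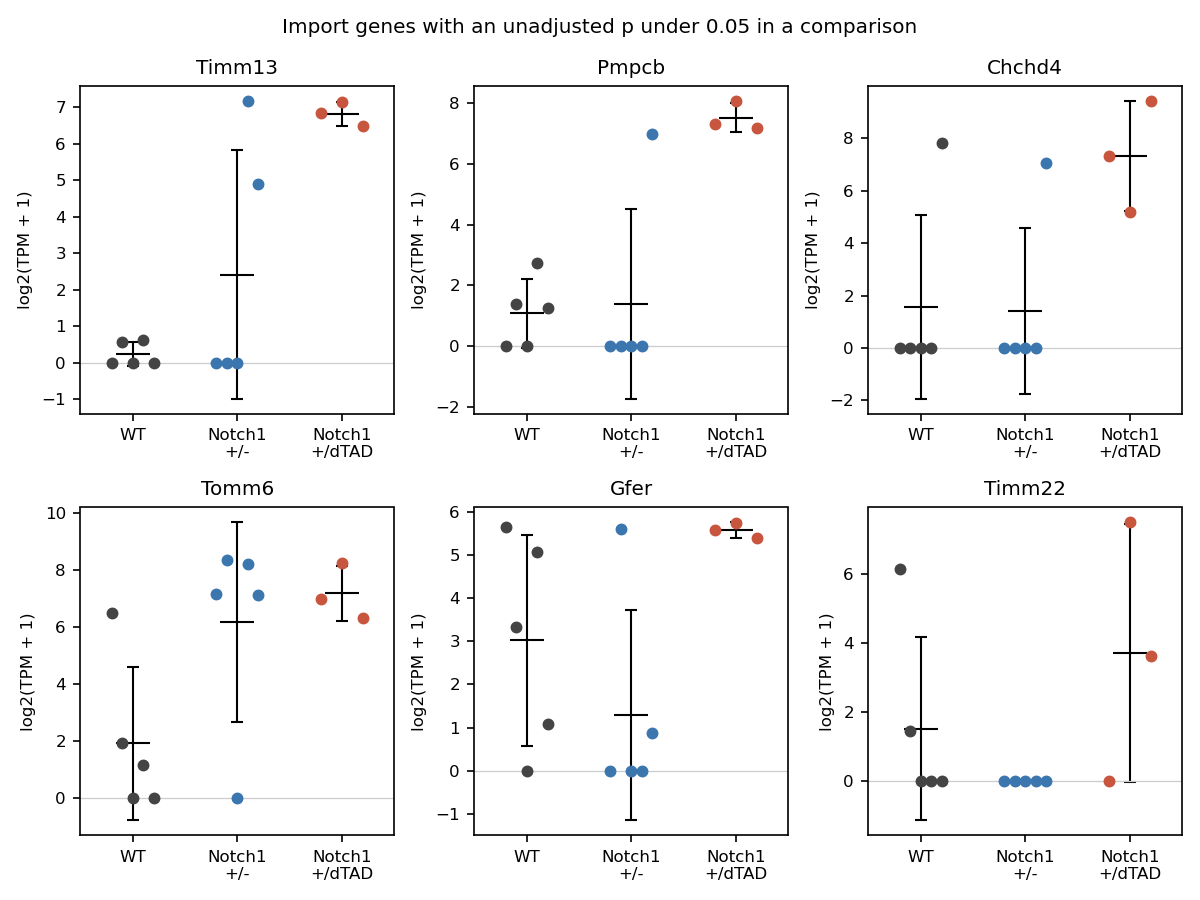
Points show log2(TPM + 1) in each library by genotype, with the mean and SD (n = 5, 5, and 3), for the 6 import genes with an unadjusted p under 0.05 in a comparison. Timm13 and Pmpcb in the 3 Notch1+/dTAD libraries lie above every WT library, and single high libraries of other genotypes are seen for Chchd4 and Pmpcb.

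The second comparison asked how loss of a functional Notch1 allele differed from WT. Tomm6 was higher in 4 of 5 Notch1+/- libraries than in any WT library, and was the single member under the unadjusted threshold. Of 3178 genes at 1 TPM or more in at least 5 of the 10 libraries, 0 passed the adjusted limma threshold, and before adjustment 170 (5.35%) fell under 0.05, of which 85 (2.67%) were higher and 85 lower. Of the members, 19 were tested, 1 had an unadjusted p under 0.05, 10 were higher and 9 lower where 51.4% of all genes tested were higher, and the median log2 fold change was 0.013 against 0.058 over all genes tested. No member was without overlap between genotypes, where 0.409% of all genes were higher and 0.378% lower without overlap.

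Tomm6 had a log2 fold change of 4.26 (SE 1.91, limma adjusted p = 0.892). When each library was left out in turn, its unadjusted p stayed under 0.05 only without library 1 or library 6. Timm10b was higher by 3.13 (SE 1.67, limma adjusted p = 0.923) and Samm50 by 1.56 (SE 1.44, limma adjusted p = 0.993). On the lower side were Gfer with -1.72 (SE 1.47), Hspe1 with -0.84 (SE 0.87), and Tomm5 with -1.74 (SE 2.14), each with a limma adjusted p of 0.993. Timm10b was at 1.88 without library 4, and without library 5 or library 11 its unadjusted p was under 0.05. Samm50 was at 0.24 without library 11, Gfer at -1.07 without library 1 and -2.80 without library 5, and Tomm5 between -3.08 and -0.65 as single libraries were left out. The value of Hspe1 rested on library 6, without which it was 0.094 (SE 0.52, limma adjusted p = 0.991). Of the motor, 3 of 3 tested members had fold changes below 0, with Pam16 at only -0.10 (SE 2.25). Hspa9 was at -0.79 (SE 1.00) and at -0.15 without library 6, and TIM22 had none tested. Both tested small TIM chaperones were higher, and TOM had 4 higher and 3 lower, where 51.4% of all genes tested were higher. Such counts are too small to set a role apart.

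The third comparison set the mutants side by side in a model of all 13 libraries. Members of the disulfide relay, Pmpcb, Timm13, and Timm22 were higher in Notch1+/dTAD than in Notch1+/- CLPs at the unadjusted threshold. The 3 tested members of TIM23 and the 3 of SAM were lower without reaching it, and such counts are too small to set a role apart. Of 6281 genes at 1 TPM or more in at least 3 libraries, 0 passed the adjusted limma threshold, and before adjustment 335 (5.33%) fell under 0.05, of which 257 (4.09%) were higher and 78 (1.24%) lower. Of 33 members tested, 5 had an unadjusted p under 0.05, all higher, 19 were higher and 14 lower where 58.9% of all genes tested were higher, and the median log2 fold change was 0.72 against 0.35 over all genes. This comparison shares its Notch1+/dTAD libraries with the comparison to WT, and both comparisons to WT share the WT libraries, so that they are not independent.

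Pmpcb was higher by 6.12 (SE 1.89, limma adjusted p = 0.913), and it was the member without overlap between the mutants, where 2.44% of all genes tested were higher and 0.621% lower without overlap. Chchd4 was higher by 5.90 (SE 2.21), Timm13 by 4.41 (SE 1.90), and Gfer by 4.28 (SE 1.91), each with a limma adjusted p of 0.932 and with overlap. Timm22 was the fifth, and because every Notch1+/- library is listed at 0 no fold is given for it, nor for Grpel1 and Grpel2. Without library 6 or without library 14, 2 members had an unadjusted p under 0.05. Pmpcb was under it on leaving out any mutant library, Chchd4 on leaving out any except library 14, and Timm13, Gfer, and Timm22 each lost it without several single libraries. The lower members with the smallest p were Timm21 with -1.94 (SE 1.81), Timm17b with -2.32 (SE 2.31), and Timm23 with -2.31 (SE 2.43), each with a limma adjusted p of 0.997, and Timm21 met the TPM minimum only through other libraries than those of Notch1+/dTAD. Each moved with single libraries, Timm21 to -0.84 and Timm17b to -1.17 without library 13, Timm17b to -1.26 without library 12, and Timm23 to -0.58 without library 9, -1.47 without library 4, -3.76 without library 5, and -3.89 without library 7. In this comparison 3 of 7 CLP markers were higher and 4 lower, 5 of 6 tested myeloid markers were higher, 4 of 5 tested B lineage markers were higher, and Nkg7, the 1 T and NK marker tested, was higher. Of these, Ly6d from the CLP list and Lyz2 and S100a9 from the myeloid list had an unadjusted p under 0.05. Between Notch1+/dTAD and WT, 3 of 7 CLP markers were higher and 4 lower. There 3 of 4 tested myeloid markers, 4 of 5 tested B lineage markers, and the 1 T and NK marker tested were higher. In that comparison 0 of these markers had an unadjusted limma p under 0.05. The part of the markers in the member results was not tested.

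**Figure D5:**
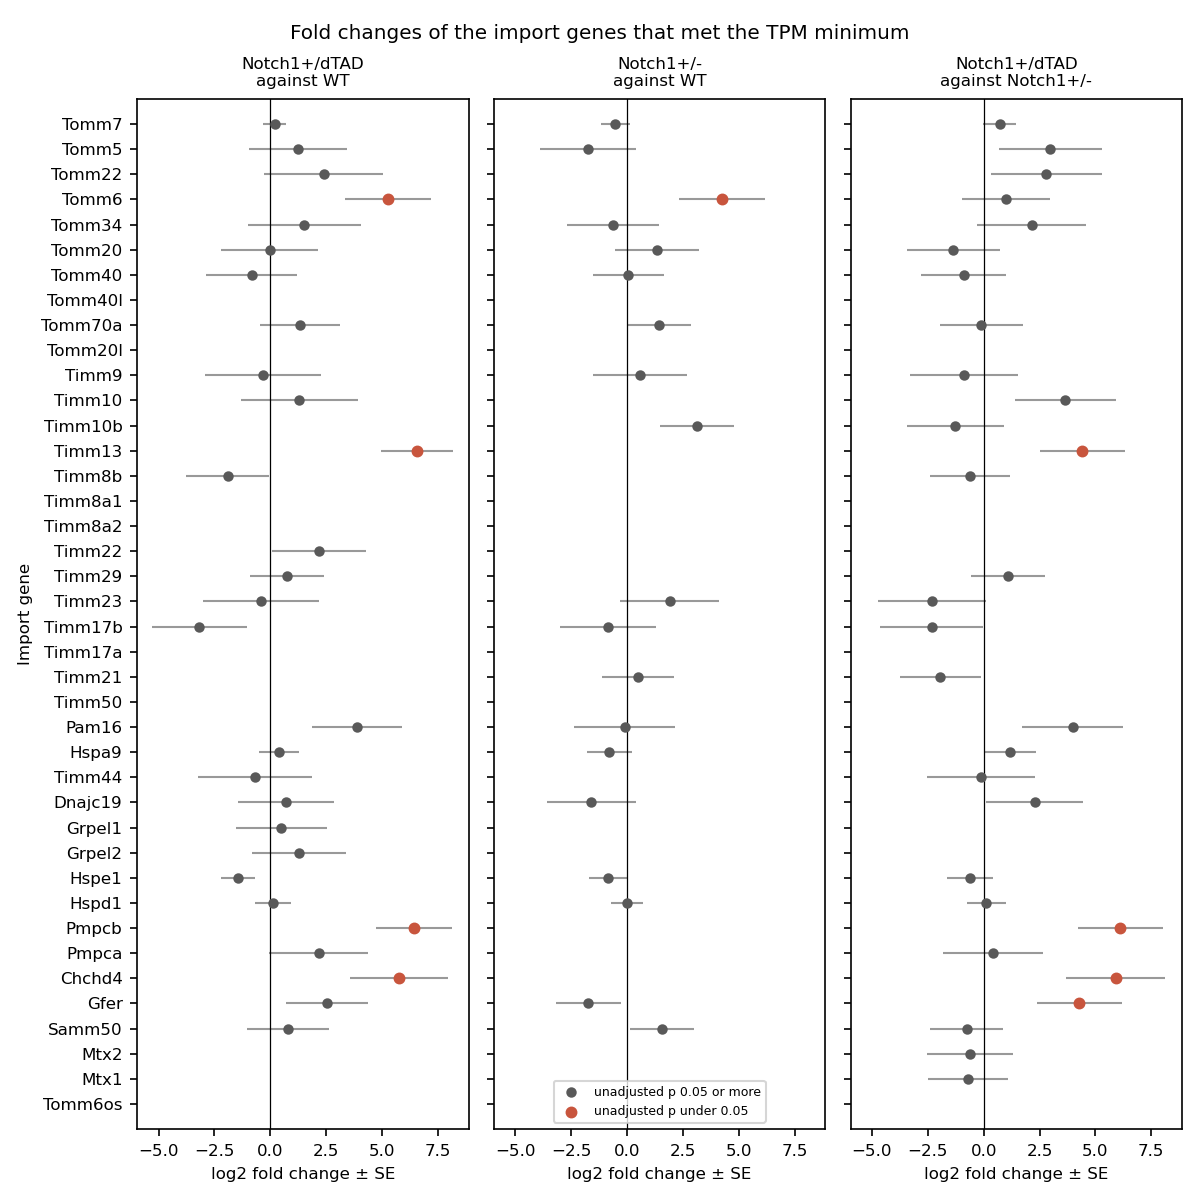
Points show the log2 fold change from limma of each tested import gene in the 3 comparisons, with its SE as a bar, and red marks an unadjusted p under 0.05. Timm22, Grpel1, and Grpel2 are left out of the third panel because all Notch1+/- libraries are at 0. Points in red lie to the right of 0 in each panel, and SEs mostly exceed 1.

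Genes whose proteins work as partners were compared across libraries, and no correlation passed 0.05 after adjustment. Of 10 pairs listed, 3 had both genes at 1 TPM or more in at least 6 libraries. Hspd1 and Hspe1, despite their shared promoter stretch, had a Pearson r of 0.106 (permutation p = 0.739, adjusted over 3 pairs 0.828) and a Spearman rho of -0.242 (permutation p = 0.429, adjusted 0.643) over 13 libraries. Leaving out the 2 libraries farthest from the median of Hspd1 gave an r of 0.422, and leaving out library 6 gave -0.459, so that the sign rested on that library. Pmpca and Pmpcb had an r of 0.385 (permutation p = 0.213, adjusted 0.640) and a rho of 0.358 (permutation p = 0.229, adjusted 0.643), and 0.619 for r without the 2 farthest libraries. Tomm20 and Tomm22 had an r of -0.0518 (permutation p = 0.828, adjusted 0.828) and a rho of -0.0927 (permutation p = 0.759, adjusted 0.759), and 0.109 for r without the 2 farthest libraries. Within libraries 1 to 9, which number 8, r was 0.0837, 0.310, and -0.122 for these pairs, and libraries 10 to 14 are too few for a value.

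Genes that work next to the import machinery were described from 7 lists with 71 genes in all. Between Notch1+/dTAD and WT, 46 were tested with limma and 0 had an adjusted or an unadjusted p under 0.05, against 5% of all genes tested, with 29 higher and 17 lower. Between Notch1+/- and WT, 32 were tested, and 2 (6.25%) had an unadjusted p under 0.05, near the 5.35% of all genes tested. Phb, a prohibitin of the inner membrane, was higher with a log2 fold change of 4.17 (SE 1.65, limma adjusted p = 0.853), and Chchd10, a client of the disulfide relay, was lower with -3.17 (SE 1.29, limma adjusted p = 0.853).

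Between the mutants, 54 of the 71 were tested and 4 (7.41%) had an unadjusted p under 0.05, near the 5.33% of all genes tested, and 0 an adjusted p under 0.05. Higher in Notch1+/dTAD CLPs were Cmc1, a relay client, with 5.05 (SE 2.07), Chchd3, a subunit of the contact sites between the membranes, with 4.27 (SE 1.71), and Vdac2, an outer membrane barrel, with 5.44 (SE 2.18). Vdac2 was listed at 124 to 218 TPM in Notch1+/dTAD and at 0 to 152 TPM in Notch1+/- libraries, so that these overlapped. Chchd3 overlapped as well, at 0 to 133 TPM in Notch1+/dTAD and at 0 to 1.25 TPM in Notch1+/- libraries. Of the 5 contact site genes tested, 1 was higher and 4 were lower. Lower was Dnaja2, a cytosolic chaperone, with -4.18 (SE 1.95). The limma adjusted p of these 4 genes was 0.932.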

How the data were processed

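RNA of CLPs from 13 mice was measured as 3′ RNA-Seq libraries. Per the study's methods, the authors used FASTQ Toolkit 2.2.0 for trimming, RNA-Seq Alignment 2.0.0 for alignment by STAR to mm10, and RNA-Seq Differential Expression 1.0.1 for a step described as DESeq2. The authors deposited TPM values in 2 tables, 1 per mutant beside WT, whose WT columns are identical. The tool and annotation behind the TPM are not given in the sources used here. TPM divides by transcript length, whereas reads of a 3′ library come from the transcript end, so the order of genes by level depends on that step. No read counts were used, so no limit can be given for a value of 0.

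Differences in log2(TPM + 1) were tested by limma 3.58.1 under R 4.3.3 (2-sided, lmFit, then eBayes with trend) over genes that reached 1 TPM in at least 3 libraries, or 5 for Notch1+/- against WT, with Benjamini-Hochberg adjustment over all of them and 0.05 as threshold. The p-values set group differences against the spread between libraries. With 1 library per mouse, differences between mice and between library preparations cannot be told apart. Pairs were correlated with 100000 permutations (2-sided, scipy 1.17.1). An erythroid marker is not reported here. Gene positions are those of GENCODE M21 (GRCm38, which is mm10), and promoters from RefSeq on GRCm38.p6.

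The members, lists, and tests were chosen with earlier results of these data known. Values in every library are given for members at 1 TPM or more in all 13 libraries, members without overlap, the 3 higher and 3 lower members with the smallest unadjusted p per comparison, the highest member by mean TPM of each role, and Hspd1 with Hspe1. Other settings tried were quantile normalization, pseudocounts of 0.1 and 10, median-ratio scaling, no filter beyond a value above 0, a filter on mean TPM at 10, limma with no trend or with a robust trend, library numbers (1 to 9 or 10 to 14) as a covariate, a single model for the 13 libraries, leaving out each library, and, chosen after seeing the data, leaving out Tomm6os.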

Additional observations from a re-analysis of the deposited data

Results flagged for a closer look

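Within groups of 5 libraries, 46 sets of member values or library measures were examined for a library far from the other 4. Member values were on the log2(TPM + 1) scale and library measures on their own scale, and not every member was covered. A gap of more than 0.71 of the whole range was found in 11 sets. For normally distributed values about 1 in 20, or 2.3, would pass this limit. Values so often at 0 are not of that kind, so 2.3 is not a chance count for these data. Of the 11 sets, 5 were a single library above 0 with the other 4 at 0, which passes the limit whatever the value. Those were Chchd4 in WT library 11 at 226.7 TPM, Chchd4 in Notch1+/- library 13 at 133.6 TPM, Pmpcb in Notch1+/- library 13 at 124.9 TPM, Timm8b in Notch1+/- library 13 at 35.18 TPM, and Timm10b in WT library 11 at 15.75 TPM. Gfer in Notch1+/- library 5 was far above the other libraries of its genotype at 47.68 TPM, and Timm21 in WT library 1 at 138.7 TPM. Library 6 of Notch1+/- lay far below its group in Hspe1 at 24.29 TPM, in Tomm7 at 95.93 TPM, and in Tomm6 at 0 TPM. In WT library 2 the 4 steady genes supplied 73.22% of the summed TPM of the members, above the other WT libraries. The cause of these values was not tested.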

How the results depend on the processing

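No paired analysis was possible because library numbers are not shared between genotypes. The number of members with an adjusted p under 0.05 between Notch1+/dTAD and WT was 0 and became 2 with eBayes without trend, and the other 60 alternatives over the 3 comparisons gave 0. At an unadjusted p under 0.05, leaving out each library gave 3 to 5 members for Notch1+/dTAD against WT, 0 to 1 for Notch1+/- against WT, and 2 to 6 for Notch1+/dTAD against Notch1+/-. The count for Notch1+/- against WT was also 0 with a pseudocount of 0.1, and that between the mutants was 3 with a pseudocount of 10. In Notch1+/- against WT it was 0 without WT library 2, 3, or 10 and without Notch1+/- library 4, 12, or 13. Between the mutants it was 2 without Notch1+/- library 6 or Notch1+/dTAD library 14, and 3 without any of the other mutant libraries. The difference of mean log2(TPM + 1) over the members between Notch1+/- and WT was 0.054 and turned to -0.013 with a pseudocount of 10, -0.074 with quantile normalization, and -0.18 within libraries 1 to 9, with -0.21 to 0.26 on leaving out each library. The same difference for Notch1+/dTAD was 0.54 to 1.72 against WT and 0.55 to 1.64 against Notch1+/- over all alternatives, 0.73 and 0.87 with quantile normalization. The ratio of summed TPM of Notch1+/dTAD to WT was 0.998 to 1.20 on leaving out each library, lowest without library 14. Hspe1 in Notch1+/- against WT was -1.16 to 0.094 on leaving out each library, highest without Notch1+/- library 6, and the correlation of Tomm20 and Tomm22 turned to 0.109 without the 2 farthest libraries. The causes were not tested. Fold changes were recomputed 364 times for the 3 higher and 3 lower members with the smallest unadjusted p per comparison and those without overlap. Of these, 361 stayed on the same side of 0 and of the adjusted threshold, which none of these members passed in the main fits. Crossings of the unadjusted threshold were not counted, and Tomm6 in Notch1+/- against WT crossed it in several alternatives. Because these members were picked from the same data, the count does not extend to others. Tomm7, Hspd1, and Hspa9, outside the count for Notch1+/dTAD against WT, each changed sign there without single libraries. TPM without counts set no depth, so values at 0 limit what a difference can show.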
